A study of Rattus norvegicus with 74 samples.

Results

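The liver response to the highest PCB126 dose was described from the arrays labelled PCB126 250 and those labelled PCB126 0, 10 of the 74 arrays of the series, with 5 in each group. The rats were of the strain Wistar Han (Crl:WI (Han)), and RNA came from the left liver lobe at postnatal day 22. The series holds 15 groups, in which BDE-47, the brominated flame retardant mixture DE-71, phenobarbital or PCB126 was given by oral gavage. All groups were exposed in utero and after birth, and the detailed schedule, with dams dosed on gestation days 6 to 21 and pups on postnatal days 12 to 21, is stated for BDE-47 and DE-71. A separate PCB126 schedule is not given in the sources used here.

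The control group carries the agent label PCB126 with a dose of 0, and its vehicle is not named. The labels give the PCB126 doses 0, 10, 50 and 250 in mg/kg, a unit that could not be checked, so the groups are called by their dose number only. Groups used for comparison were PCB126 10 and 50 with 5 arrays each, DE-71 50 with 4 and its DE-71 0 with 5, phenobarbital 45 and 0 with 5 each, and BDE-47 50 and 0 with 5 each. In BDE-47 0, replicates 3 and 4 were near-identical and were averaged, which leaves 4 samples. DE-71 50 replicate 4 was near-identical to DE-71 15 replicate 5, and BDE-47 50 replicate 3 to BDE-47 15 replicate 3, although the labels place them in different dose groups. These 4 arrays were kept as labelled, and several results that rest on them are also given without them. Sex and litter are not in the labels, so the p values measure only the spread between samples within groups, estimated jointly over all 15 groups. Xist, the transcript that silences an X chromosome in females, lay between 2.96 and 3.24 log2 units and the Y-linked Eif2s3y between 8.65 and 9.18 on all 10 arrays of PCB126 0 and 250. PCB126 50 replicate 2 differed, with Xist at 9.89 and Eif2s3y at 2.45, while Y-linked Uty read 9.07 on it, against 7.58 to 8.39 on the other 19 PCB126 arrays. It enters only the comparisons that use the 50 dose and the shared estimate of the spread.

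PCB126 is a coplanar polychlorinated biphenyl that acts like dioxin. It binds the aryl hydrocarbon receptor (AhR), a cytosolic factor that then moves to the nucleus, pairs with Arnt and binds DNA at dioxin response elements whose core is GCGTG. In liver the best known targets are the cytochrome P450 genes Cyp1a1, Cyp1a2 and Cyp1b1, together with Nqo1 and other enzymes that modify and conjugate foreign compounds.

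The start regions of called genes show where the core letters of that element lie. RefSeq (GRCr8) promoter entries matched 7 of the 8 called genes, Cyp1b1, Acp2, Cyp1a2, Nfe2l2, Pkdcc, Nqo1 and Cxcl9. Among the 250 bases before the start, GCGTG on either strand (CACGC when read on the other) occurred in 2 of these 7, Cyp1b1 and Nqo1, and in 25.9% of 33469 promoters of the same length. The longer form TNGCGTG, which overlaps it, was found in 4.09% of all promoters and in 1 of the 7 (Cyp1b1), and TGACNNNGC, the core of the antioxidant response element bound by Nrf2, in 10.1% of all and 0 of the 7. The Cyp1b1 and Nqo1 sequences are printed because they hold the core. Capitals mark it, and each sequence is written 5′ to 3′ along the gene, Cyp1b1 at chr6:21094315-21094564 on the plus strand and Nqo1 at chr19:52220268-52220517 on the minus strand.
Cyp1b1: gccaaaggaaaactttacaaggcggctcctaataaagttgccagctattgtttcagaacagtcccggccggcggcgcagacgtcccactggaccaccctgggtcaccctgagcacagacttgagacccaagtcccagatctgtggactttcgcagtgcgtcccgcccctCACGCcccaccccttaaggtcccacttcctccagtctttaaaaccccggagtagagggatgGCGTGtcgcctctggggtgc
Nqo1: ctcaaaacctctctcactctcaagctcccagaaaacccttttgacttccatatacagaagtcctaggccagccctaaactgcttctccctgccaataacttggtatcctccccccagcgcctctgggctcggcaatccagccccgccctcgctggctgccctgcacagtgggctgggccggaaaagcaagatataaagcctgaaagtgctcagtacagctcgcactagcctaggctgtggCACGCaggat
In Cyp1b1 the matches begin 81 bases before the start, on the opposite strand, and 20 bases before it, on the gene's strand, and in Nqo1 the match begins 10 bases before the start on the opposite strand. A match describes these letters only.

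Expression of 14217 genes was compared as log2 values, in which a difference of 1 is a doubling. A gene was called, and is said to have risen or fallen, at an adjusted p below 0.05 in limma. At PCB126 250 against PCB126 0, 8 genes rose (0.0563% of those tested) and 0 fell (0%). At an unadjusted p below 0.05 there were 406 higher and 421 lower genes, 5.82% of all together. The array values of 91 genes (0.64%) were higher on all treated arrays than on every control array, and those of 73 genes (0.513%) were lower on all of them. Fewer cells of a type and less RNA per cell cannot be told apart in such bulk tissue. Hepatocyte markers were high on every array, with an array mean over 14 genes of 12.68 to 12.89 at dose 0 and 12.62 to 12.97 at 250.

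**Figure D1:**
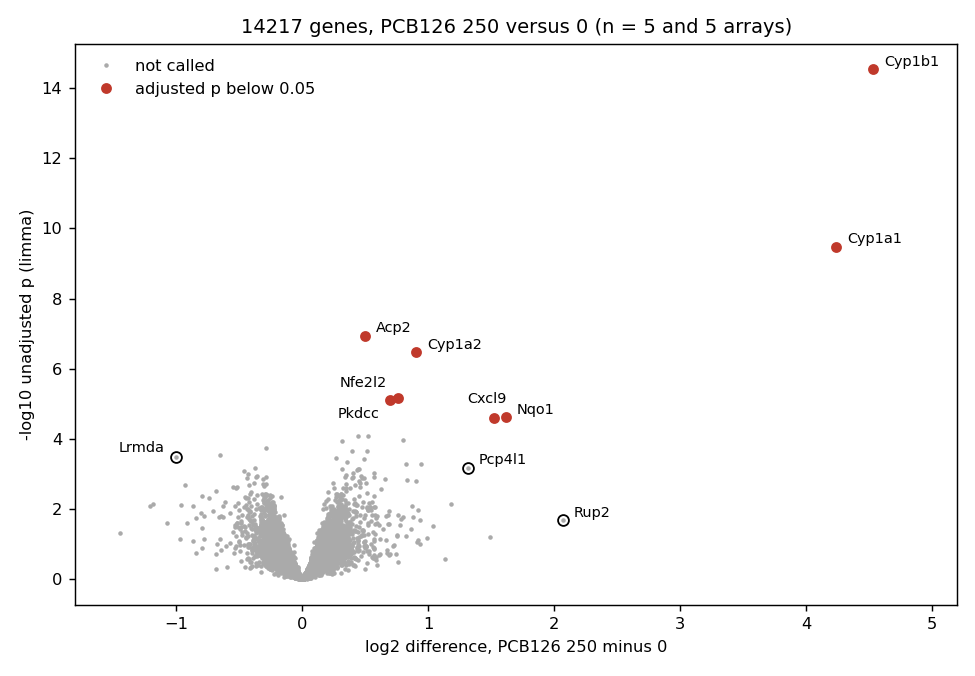
Log2 difference of PCB126 250 minus PCB126 0 (x axis) against the −log10 unadjusted limma p (y axis) for 14217 genes, 5 arrays per group, with the 8 called genes in red and 3 genes discussed later circled. All 8 red points lie right of 0, and Cyp1b1 at 4.53 and Cyp1a1 at 4.24 stand far from the rest.

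The P450 genes of the AhR battery, the set of genes AhR is known to switch on, gave the 2 largest rises. Cyp1a1, which oxidises polycyclic aromatic compounds, read 9.19, 7.48, 9.64, 9.77 and 9.78 log2 units on the 5 control arrays. The treated arrays read 13.29, 13.39, 13.60, 13.44 and 13.34, all of them far above every control. The treated arrays were tightly grouped (SD 0.12) while the controls were spread (SD 0.98), with control replicate 2 far below the other 4. The difference was 4.24 (SE 0.57, limma adjusted p = 2.4e-06), and leaving out single arrays of either group gave 3.82 to 4.39, the lowest without control replicate 2.

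Cyp1b1, an extrahepatic relative that also metabolises estradiol, was low on all control arrays, with 5.36, 5.32, 5.22, 5.18 and 5.41. The treated arrays read 7.95, 10.47, 10.95, 10.35 and 9.42. The groups did not overlap, and here the spread was on the treated side, where replicate 1 was the lowest. The SD of Cyp1b1 was at percentile 17.6 of all genes in the controls and at percentile 99.8 at 250, whereas for Cyp1a1 it was at percentile 99.8 in the controls and 27.2 at 250. The Cyp1b1 difference was 4.53 (SE 0.43, limma adjusted p = 4.2e-11), a 23.1-fold ratio.

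Cyp1a2, the constitutive liver member that metabolises caffeine and binds dioxins, was already high in the controls, at 13.26, 12.83, 12.95, 13.32 and 13.23. At 250 it read 13.83, 14.11, 14.04, 14.16 and 13.99, above every control. Its rise was 0.91 (SE 0.16, limma adjusted p = 0.0012), 1.88-fold. Cyp1a1, Cyp1a2 and Cyp1b1 kept their calls in all 23 alternative analyses run.

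Nqo1, a quinone reductase controlled by both AhR and Nrf2, read 9.34, 9.52, 10.69, 10.13 and 10.00 in the controls and 11.27, 11.76, 11.92, 11.11 and 11.70 at 250. The groups were apart, with control replicate 3 closest to the treated arrays. Its rise of 1.62 (SE 0.35, limma adjusted p = 0.044) lost its call in 13 of 23 alternatives, with an adjusted p of up to 0.25 without control replicate 1. Nfe2l2, which encodes Nrf2 itself, read 10.04, 10.22, 9.81, 9.95 and 9.93 in the controls and 10.68, 10.70, 10.98, 10.73 and 10.65 at 250, again with no overlap. It rose by 0.76 (SE 0.15, limma adjusted p = 0.019), a call lost in 4 of 23 alternatives (adjusted p = 0.13 without 250 replicate 3, its highest array).

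The battery list had 17 of its 21 genes measured, of which 5 rose (Cyp1a1, Cyp1a2, Cyp1b1, Nqo1 and Nfe2l2), 0 fell and 12 were not called. The median difference over the 17 was 0.22, against -0.01 over all genes. Selenbp1, a selenium-binding methanethiol oxidase, was higher on all treated arrays (10.60 ± 0.23 in controls, 11.08 ± 0.21 at 250, SD, n = 5 each), with a difference of 0.48 and a limma adjusted p of 0.72. Exoc3, an exocyst subunit, differed by 0.43 (limma adjusted p = 0.38), and its treated arrays ranged from 7.97 to 9.34 with replicate 3 on top. Of its other 3 probe sets, 1389624_s_at was higher on every treated array by 0.61 (limma adjusted p = 0.057), 1370686_at likewise by 0.79 (0.34), and 1382133_at differed by -0.04 with overlap. Replicate 3 was the highest treated array in each of them. Other well known AhR targets were not called. The AhR repressor Ahrr differed by 0.13, the ADP-ribosyltransferase Tiparp by -0.02, the aldehyde dehydrogenase Aldh3a1 by -0.01, the flavin monooxygenase Fmo1 by -0.16 and the hormone gene Fgf21 by 0.42. Ahrr and Aldh3a1 lay low on every array of both groups, between 3.34 and 3.93 for Ahrr and between 3.43 and 3.85 for Aldh3a1.

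**Figure D2:**
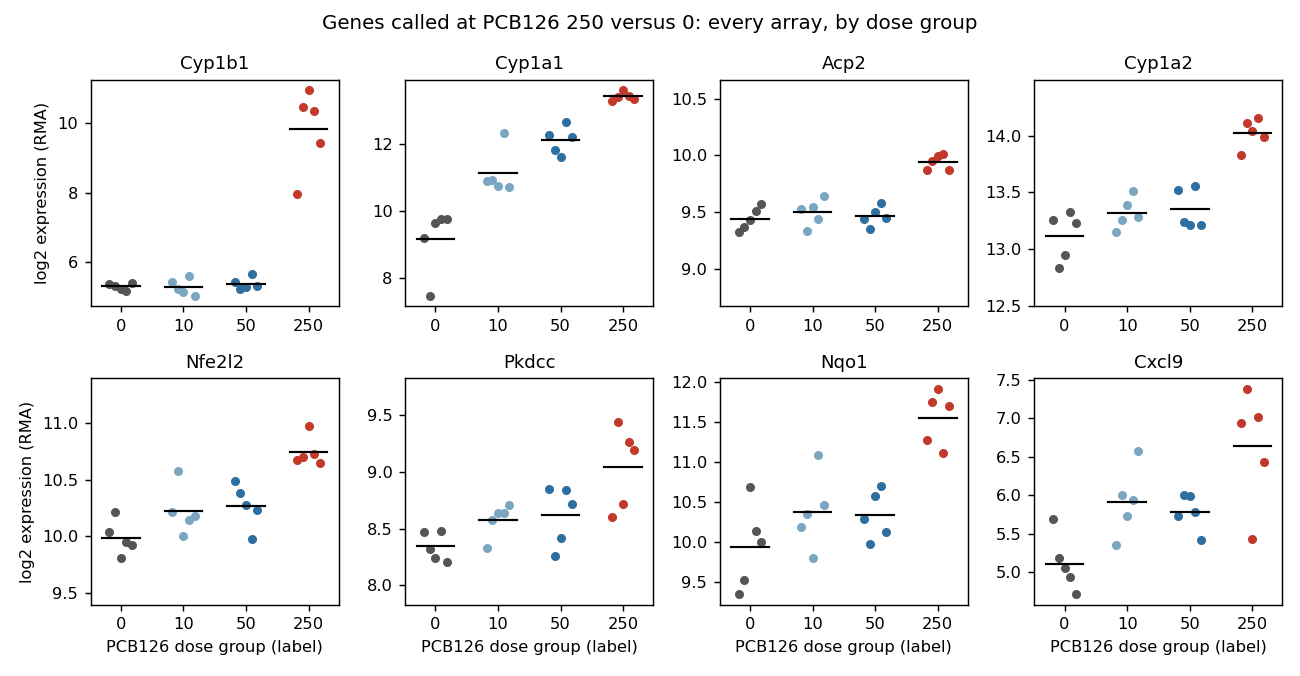
Log2 RMA expression (y axis) of the 8 called genes on each PCB126 array (points) with group means (bars), by dose group 0, 10, 50 and 250 (x axis), 5 arrays per group. Cyp1b1 and Acp2 are level up to dose 50 and higher at 250, while the means of Cyp1a1 climb from 9.17 to 11.13, 12.11 and 13.41.

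The receptor machinery was not called apart from Cyp1a1, which is on that list as the enzyme that clears AhR ligands. The list had 12 of 14 genes measured. Ahr differed by 0.39 (SE 0.33), its partner Arnt by 0.11, the chaperones Hsp90ab1 and Ptges3 by 0.20 and 0.09, and the coactivator Ncoa2 by -0.22. Ahr ranged from 5.45 to 6.23 in the controls. At 250 it read 6.68, 5.17, 6.46, 6.53 and 5.78, with arrays above, within and below the control range, so its groups overlapped.

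The remaining 3 called genes are not members of the battery list. Acp2, the lysosomal acid phosphatase, read 9.33, 9.37, 9.43, 9.51 and 9.57 in the controls and 9.87, 9.95, 10.00, 10.01 and 9.87 at 250. The groups were apart with a narrow spread in each (SD 0.10 and 0.07), and the rise was 0.50 (SE 0.08, limma adjusted p = 5.4e-04), kept in all 23 alternatives. It was the called member among 22 measured lysosomal genes (0 fell, median 0.00), and the cathepsin Ctsl differed by 0.26 without a call.

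Pkdcc, a secreted kinase of matrix proteins, read 8.47, 8.32, 8.24, 8.48 and 8.21 in the controls and 8.60, 9.45, 8.72, 9.26 and 9.19 at 250. The groups did not overlap, though treated replicates 1 and 3 stayed close to the controls. The rise was 0.70 (SE 0.14, limma adjusted p = 0.019) and lost its call in 8 of 23 alternatives, among them the fit with only the 10 arrays of doses 0 and 250 (adjusted p = 0.39).

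Cxcl9, a chemokine that interferon-gamma induces and that draws T cells, read 5.69, 5.19, 5.05, 4.94 and 4.71 in the controls and 6.94, 7.39, 5.44, 7.02 and 6.43 at 250. It was the called gene whose groups overlapped, since treated replicate 3 lay below control replicate 1. The rise of 1.53 (SE 0.34, limma adjusted p = 0.044) lost its call in 12 of 23 alternatives, with adjusted p up to 0.32 without 250 replicate 2. A second Cxcl9 probe set differed by 1.65 with no overlap, at a limma adjusted p of 0.087 over all probe sets.

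Among 20 measured interferon-gamma response genes Cxcl9 was the 1 that rose, 0 fell, and the median was 0.18. The chemokine Ccl5 read 6.85, 6.71, 6.78, 7.25 and 6.93 in the controls and 7.73, 7.81, 7.62, 7.43 and 8.09 at 250, a difference of 0.83 with no overlap and a limma adjusted p of 0.44. Ccl5 passed in 1 of 23 alternatives (limma adjusted p = 0.045). Cxcl10 differed by 0.52 and the GTPase Gbp2 by 0.60, neither called. Of 17 measured T and NK cell markers 0 rose and 0 fell, with a median of 0.01. Their array mean was 4.45 to 4.59 in the controls and 4.50 to 4.70 at 250, with Cd3e at -0.08, Cd8a at 0.01 and Prf1, the pore protein of killer cells, at 0.45. The part of such cells in the Cxcl9 rise was not tested.

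Genes under Nrf2 control lay mostly above their control means without passing the test. Of 24 measured members 1 rose (Nqo1), 0 fell and 21 had a positive difference, with a median of 0.34 against -0.01 over all genes. Their array mean was 8.32 to 8.75 in the controls and 8.89 to 9.04 at 250. Srxn1, which repairs oxidised peroxiredoxins, read 7.25, 7.37, 7.43, 7.43 and 7.32 in the controls and 7.81, 8.35, 8.57, 8.28 and 7.79 at 250. Its groups were apart, with a difference of 0.80 and a limma adjusted p of 0.77, which became 0.038 when only PCB126 arrays set the spread. Of 23 alternatives this was the 1 in which Srxn1 passed. The microsomal epoxide hydrolase Ephx1 differed by 0.69, the transporter Abcc3 by 0.52, and the glutathione S-transferases Gsta4 and Gstm1 by 0.40 and 0.37, none of them called. The wider glutathione S-transferase list had 0 of 20 called and a median of 0.14, with Gstm2 at 0.92 and Gstm7 at -0.38.

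Genes that the nuclear receptors CAR and PXR induce, which respond to phenobarbital, were not called. Of 17 measured members 0 rose and 0 fell, and the median was -0.01. Ces2c, a carboxylesterase, differed by 0.03, Ugt2b1, a glucuronosyltransferase, by 0.10 and Alas1, the first enzyme of heme synthesis, by -0.48. A probe set shared by Cyp2b1 and Cyp2b2, the classic phenobarbital-induced P450 genes, differed by -0.36 without a call.

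Other metabolic lists held 0 called members in limma. All 20 measured cholesterol genes had a negative difference (median -0.22), with Lss at -0.47 as the 1 below an unadjusted p of 0.05. Their array means overlapped, at 9.25 to 9.96 in the controls and 9.04 to 9.83 at 250, and the 250 group was not the lowest, since the median at dose 50 against the same controls was -0.48. In the cell cycle list 22 of 26 members were negative (median -0.21), with the replication clamp Pcna at -0.42 and the helicase subunits Mcm5, Mcm3 and Mcm2 at -0.40, -0.38 and -0.36. Its array means again overlapped, at 6.92 to 7.86 and 6.46 to 7.61. Lists for conjugation, chemokine, retinoid, thyroid hormone, fatty acid, bile acid, glucose, heme, p53, stress, acute phase, type I interferon, MHC class II, clock, fetal liver and growth hormone genes had medians between -0.09 and 0.11. Among them, the acute phase protein A2m differed by -0.87, the phosphatidate phosphatase Lpin1 by -0.84 and the signalling inhibitor Cish by -0.91.

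Cell type markers were close between the groups. None of the markers of hepatocytes, Kupffer cells, stellate cells, endothelium, cholangiocytes, T and NK cells, B cells, neutrophils, erythroid cells or pancreas and gut was called in limma, and 7 of these 110 markers had an unadjusted p below 0.05, 3 higher and 4 lower. Over all genes 827 of 14217 (5.82%) lay below the same limit. The list medians ran from -0.14 for the neutrophil list to 0.15 for the stellate cell list.

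**Figure D3:**
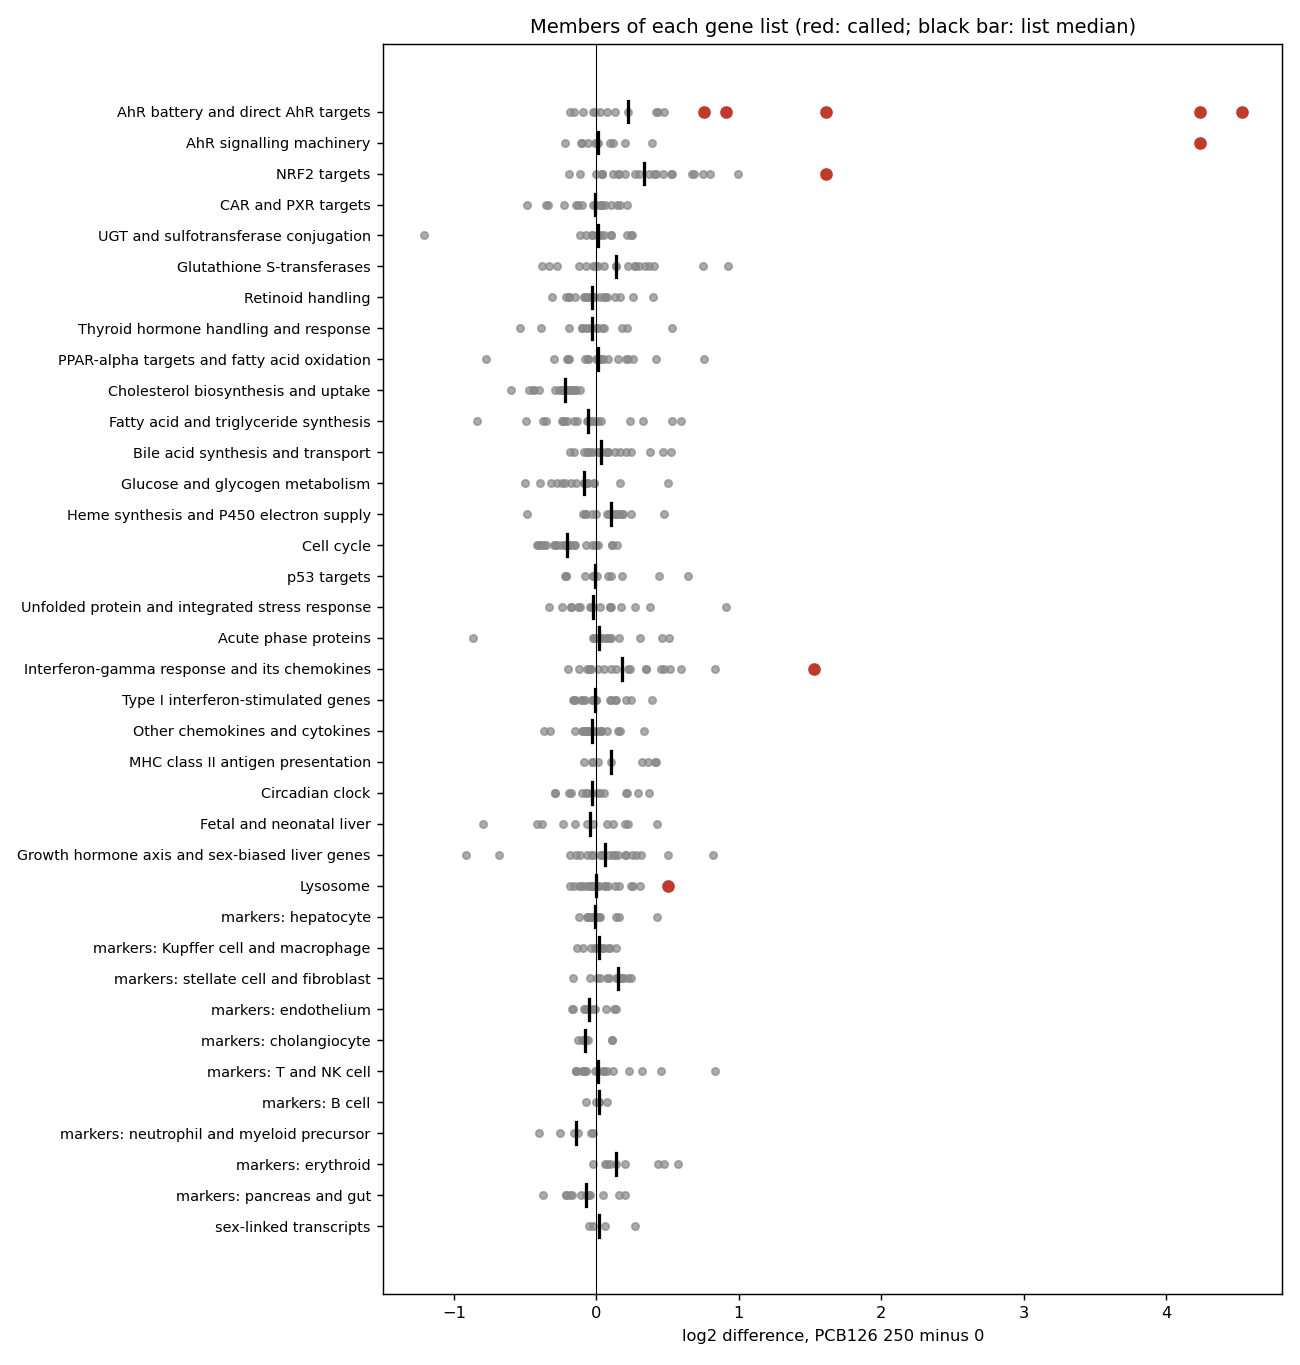
Log2 difference of PCB126 250 minus 0 (x axis) for each measured member (points) of every gene list (y axis), with called members in red and the list median as a black bar. Called members occur in 5 lists, and most list medians lie near 0, with the NRF2 list at 0.34 and the cholesterol list at -0.22.

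The genes next in rank did not pass the test. Glrx, a glutaredoxin, was higher at 250 by 0.52 (limma adjusted p = 0.12), Nt5e, the ecto-nucleotidase CD73, by 0.44 (0.12) and the chaperone Hsph1 by 0.80 (0.14), each with no overlap between groups. Each of them passed in 1 of 23 alternatives, at a limma adjusted p of 0.018, 0.018 and 0.036 in this order. For Hsph1 this was the fit limited to the 10 arrays. Pcp4l1, a relative of a calmodulin-binding Purkinje cell protein, read 7.42, 6.65, 8.03, 7.31 and 7.33 in the controls and 8.28, 9.11, 9.32, 8.09 and 8.54 at 250. Its difference was 1.32 with no overlap and a limma adjusted p of 0.38.

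On the lower side Ndufb3, a subunit of respiratory complex I, at -0.28 (limma adjusted p = 0.20) and Ccdc62 at -0.65 (0.26) ranked first by p, both with overlapping groups. Ndufb3 passed in 1 of 23 alternatives (limma adjusted p = 0.025) and Ccdc62 in 1 of 22 (0.039). Among genes with an unadjusted p below 0.05 and no overlap, the largest lower difference was that of Lrmda, named for a role in melanocyte differentiation. It read 7.46, 6.86, 7.45, 7.24 and 6.92 in the controls and 5.91, 6.24, 6.03, 6.59 and 6.15 at 250, every treated array below every control. The ratio of the treated to the control mean was 0.499 (95% confidence interval of the log2 difference -1.53 to -0.48), with a limma adjusted p of 0.27. Lrmda passed as a fall in 3 of 23 alternatives, with only the 10 arrays (0.042), with the median over probe sets (0.039) and with array weights (0.028). Other genes whose treated arrays all lay below the controls were Adam11 at -0.80, the mitochondrial aldehyde dehydrogenase Aldh1b1 at -0.68, the liver-secreted factor Fgl1 at -0.61 and the early response gene Ier2 at -0.52, none called.

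Probe sets that the gene table leaves out were tested in a fit of all probe sets, which also holds those of the gene table. Over all 31042 probe sets 10 rose (0.0322%) and 0 fell, with 1812 below an unadjusted p of 0.05. In this wider test the gene-table probe sets of Nqo1 and Cxcl9 were not called, at a limma adjusted p of 0.057 each. The smallest p value of all belonged to 1370371_a_at, annotated to both Ceacam4 and Ceacam1, cell adhesion proteins of which Ceacam1 lines bile canaliculi. It read 5.61, 5.67, 6.44, 5.74 and 6.50 in the controls and 8.42, 9.53, 10.15, 9.42 and 9.93 at 250, with a wide gap between the groups. The difference was 3.50 (SE 0.32, limma adjusted p = 1.1e-11), 11.3-fold. The 3 probe sets annotated to Ceacam1 alone differed by 0.41, 0.54 and 0.91 with overlapping groups and no call, so the signal cannot be assigned to either gene here.

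A probe set shared by 8 Ugt1a genes, which glucuronidate thyroxine and bilirubin among others and include the AhR target Ugt1a6, read 12.86, 12.67, 12.96, 12.76 and 12.65 in the controls. At 250 it read 13.05, 13.28, 13.35, 13.25 and 13.10, just above them all. It rose by 0.42 (SE 0.09, limma adjusted p = 0.024), and a second shared Ugt1a probe set differed by 0.85 with overlap and no call. The probe set shared by Gsta5 and Gsta2, the latter an AhR battery gene, differed by 0.85 with no overlap (limma adjusted p = 0.092). Probe set 1378083_at, unnamed in the annotation used, rose by 0.98 from 4.52 ± 0.19 to 5.50 ± 0.51 (SD, n = 5 each, limma adjusted p = 2.3e-05).

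Rup2, a rat urinary protein gene, had 4 probe sets, all higher on every treated array. 1370350_x_at read 2.67, 3.31, 2.60, 2.74 and 2.84 in the controls and 3.97, 3.45, 3.89, 4.01 and 5.15 at 250, and was called as risen (fitted difference 1.26, SE 0.21, limma adjusted p = 9.7e-04). Its control mean of 2.83 exceeded that of only 4.67% of all probe sets and lay below the 2.96 to 3.24 of Xist on these arrays. No detection calls were used here, so whether the controls lay above background is not known and the size of this difference is not a measured fold. The control means of the other 3 exceeded 22.0% to 34.4% of probe sets. The other 3 differed by 4.06, 2.33 and 2.07 without a call. The largest, 1370349_a_at, read 2.92, 5.16, 3.23, 3.02 and 3.42 in the controls and 7.23, 7.60, 6.02, 9.11 and 8.11 at 250. The probe set that stands for Rup2 in the gene table (2.07, SE 0.87, limma adjusted p = 0.81) passed when only PCB126 arrays set the spread, at 0.0066. Counting that fit, Rup2 passed in 2 of 22 alternatives.

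**Figure D4:**
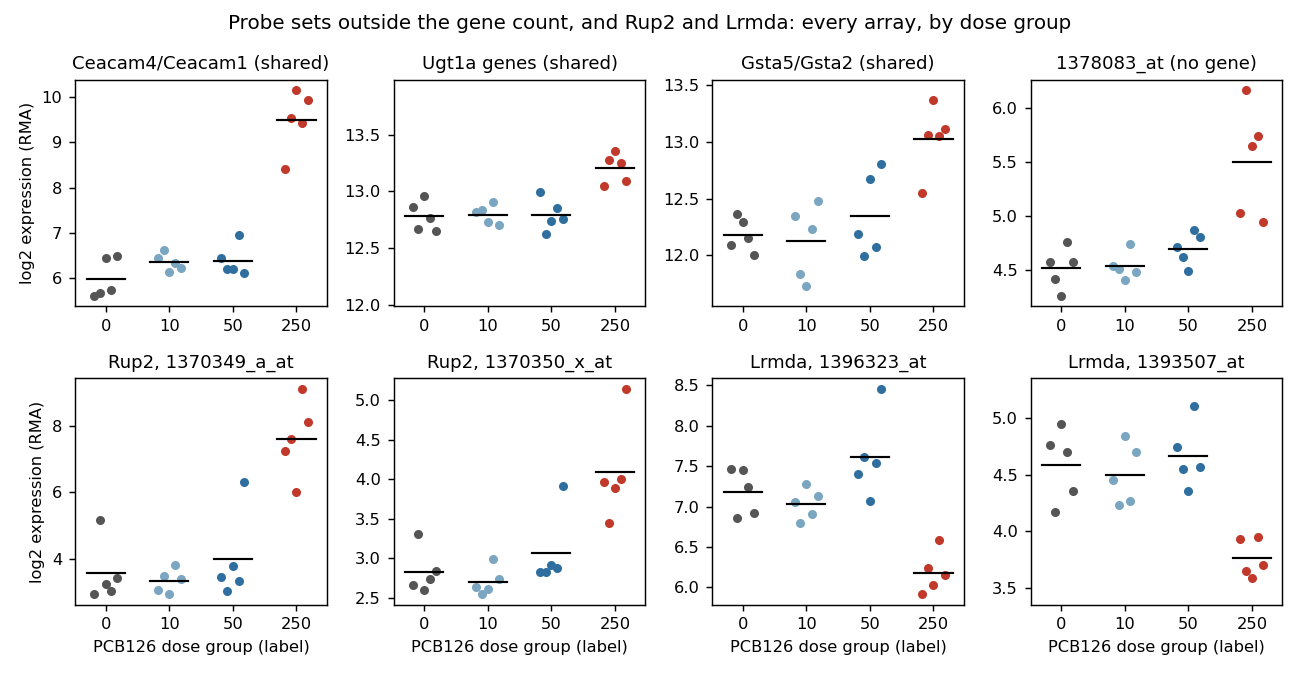
Log2 RMA expression (y axis) on each PCB126 array (points) with group means (bars) by dose group (x axis), for 4 probe sets outside the gene count and 2 each of Rup2 and Lrmda, 5 arrays per group. The Ceacam4/Ceacam1 probe set stays between 5.61 and 6.94 up to dose 50 and lies between 8.42 and 10.15 at 250, and both Lrmda probe sets are lowest at 250.

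The lower PCB126 doses were set beside 250. The comparisons of 250, 50 and 10 with dose 0 share the same 5 control arrays, so the values stand side by side, and the steps between treated groups were tested directly. At dose 50 the gene that rose was Cyp1a1 (0.00703% of genes), by 2.94 (limma adjusted p = 0.037), with 5.63% of genes below an unadjusted p of 0.05. At dose 10 there were 0 called genes in limma and 379 below an unadjusted p of 0.05. Against dose 50, 2 genes rose at 250 (0.0141%, Cyp1b1 and Acp2) and 1 fell (0.00703%, Lrmda), with 5.8% of genes below an unadjusted p of 0.05. Against dose 10, the same 2 rose (0.0141%) and 0 fell (0%), with 471 genes below an unadjusted p of 0.05.

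Cyp1b1 stayed at its control level through the lower doses, with means of 5.30 ± 0.10, 5.28 ± 0.23, 5.38 ± 0.17 and 9.83 ± 1.19 at 0, 10, 50 and 250 (SD, n = 5 each). The step from 50 to 250 was 4.45 (SE 0.43, limma adjusted p = 8.5e-11). Acp2 had the same shape, at 9.44, 9.50, 9.46 and 9.94, with a step from 50 of 0.48 (limma adjusted p = 0.0023) and one from 10 of 0.44 (0.01), the latter lost without 250 replicate 3 (0.067), 250 replicate 4 (0.075) or PCB126 10 replicate 2 (0.16). The Ceacam4/Ceacam1 probe set did likewise, at 5.99, 6.36, 6.38 and 9.49, and its step from 50 was 3.10 (limma adjusted p = 6.1e-10).

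Cyp1a1 was spread over the doses, at 9.17 ± 0.98, 11.13 ± 0.68, 12.11 ± 0.40 and 13.41 ± 0.12. On its arrays dose 10 read 10.91, 10.94, 10.76, 12.33 and 10.72, and dose 50 read 12.26, 11.82, 11.62, 12.64 and 12.20. Every 250 array lay above every 50 array, yet the step of 1.30 (95% confidence interval 0.17 to 2.44) had a limma adjusted p of 0.83. The difference in shape between Cyp1a1 and Cyp1b1 was not tested.

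A linear trend over the 4 dose groups in order, which uses all 20 PCB126 arrays, was called upward for 6 genes (0.0422%) and downward for 0 (0%), with 5.72% of genes below an unadjusted p of 0.05. The risen genes were Cyp1b1 and Cyp1a1 (both 1.37 per dose step), Cyp1a2 (0.28), Nfe2l2 (0.23), Pkdcc (0.21) and Acp2 (0.15). Such a slope is fitted across all steps, and the means of Cyp1b1 and Acp2 were level up to dose 50. Nfe2l2 lost its trend call in 11 and Pkdcc in 14 of 30 alternatives. For Cyp1a2 the means were 13.12, 13.32, 13.35 and 14.03, for Nfe2l2 9.99, 10.23, 10.27 and 10.75, and for Nqo1 9.94, 10.37, 10.33 and 11.55. None of these 3 genes was called between 250 and 50, where their differences were 0.68, 0.47 and 1.22.

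Lrmda was not ordered by dose. Its means were 7.18, 7.03, 7.62 and 6.18, and the arrays of dose 50 read 7.40, 7.61, 7.07, 7.54 and 8.46. It fell by 1.43 from 50 to 250 (limma adjusted p = 0.0046), and without PCB126 50 replicate 5, its highest array, the difference was -1.22 (adjusted p = 0.13). A second Lrmda probe set fell by 0.90 over the same step (limma adjusted p = 0.026).

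DE-71 and phenobarbital were each set against their own control arrays. DE-71 50 changed 1448 genes (4.83% risen, 5.35% fallen) and phenobarbital 45 changed 384 (1.38% risen, 1.32% fallen). Of the 8 genes that rose with PCB126 250, 7 also rose with DE-71 50 and 0 fell, the exception being Pkdcc at 0.00. These 7 are 0.483% of the genes DE-71 50 changed. With phenobarbital 45, 1 of the 8 rose (Cxcl9, by 1.54) and 2 fell (Cyp1a2 by 0.57 and Pkdcc by 0.65). With BDE-47 50 (2.35% of genes risen, 1.68% fallen), Cyp1a1 rose by 2.11 and Pkdcc fell by 0.53. Without the 4 arrays that were near-identical across dose groups, DE-71 50 (3 samples) changed 1911 genes and 7 of the 8 again rose with it, and BDE-47 50 (4 samples) changed 491 with Cyp1a1 at 2.15 and Pkdcc at -0.57, both called.

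The difference between the PCB126 250 and DE-71 50 responses was itself tested. It was called for 110 genes, 33 with the higher PCB126 response (0.232%) and 77 with the lower (0.542%). Of these 110 genes 108 were called for DE-71, all 77 lower ones had risen there, and 0 were among the PCB126 calls. The count depended on single DE-71 arrays, at 43 without DE-71 50 replicate 2, 200 without replicate 3, 300 without replicate 4 and 171 without DE-71 0 replicate 3. Replicate 4 is the array near-identical to one of DE-71 15, and without all 4 such arrays the count was 277, which held 109 of the 110 genes.

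None of the 8 genes that PCB126 raised was called as differing from DE-71 in limma. Nqo1 differed between the responses by 0.06 (95% confidence interval -0.97 to 1.09), Acp2 by 0.02 (-0.22 to 0.27) and Nfe2l2 by 0.24 (-0.21 to 0.68). Cyp1b1 responded by 4.53 to PCB126 and 2.58 to DE-71, a difference of 1.95 (0.68 to 3.21, limma adjusted p = 0.13). Cyp1a1 ran the other way, 4.24 against 6.28, a difference of -2.04 (-3.69 to -0.38, limma adjusted p = 0.25). For the remaining genes the fit of all probe sets gave Pkdcc at 0.70 (0.28 to 1.12, limma adjusted p = 0.13). In that fit Cxcl9 differed by -1.47 (-2.45 to -0.49, 0.20) and Cyp1a2 by -0.41 (-0.87 to 0.06, 0.52). Aldh3a1, an AhR target in many tissues, rose by 1.54 with DE-71 and differed by -0.01 with PCB126. That difference of -1.55 had a limma adjusted p of 0.028, which became 0.25 without DE-71 50 replicate 2, 0.12 without DE-71 50 replicate 5, 0.057 without PCB126 0 replicate 3 and 0.059 without PCB126 0 replicate 5.

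In the CAR and PXR list, 12 of 17 genes rose with DE-71 50 and 13 with phenobarbital 45, against 0 with PCB126 250. The response was called lower for PCB126 in 11 of the 17 against DE-71, and also in 11 against phenobarbital. Ces2c responded by 0.03, 2.85 and 3.81 to PCB126, DE-71 and phenobarbital, and Ugt2b1 by 0.10, 1.22 and 1.38. Cltrn, a collectrin that carries amino acid transporters to the membrane, responded by 0.07, 3.90 and 4.94. All of these differences from PCB126 were called in limma, with adjusted p from 2.2e-12 to 4.9e-05.

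Against phenobarbital 45 the response differed for 75 genes, 24 higher (0.169%) and 51 lower (0.359%), and all 51 lower ones had risen with phenobarbital. Of the 8 genes PCB126 raised, 4 were among the 75. Cyp1b1 differed by 4.63 (limma adjusted p = 6.3e-07), Cyp1a2 by 1.48 (1.1e-05), Pkdcc by 1.35 (8.5e-06) and Cyp1a1 by 3.13 (0.047), the last lost in 20 of 28 alternatives. Pcp4l1 ran against both other agents, with a response of 1.32 to PCB126 that was not called, a fall of -1.36 with DE-71 and a fall of -1.98 with phenobarbital. The differences were 2.68 (limma adjusted p = 0.0024) and 3.30 (2.4e-05). Inmt, a methyltransferase of the battery list, responded by -0.19 to PCB126 and rose by 2.15 with phenobarbital, a difference of -2.33 (limma adjusted p = 0.0057).

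**Figure D5:**
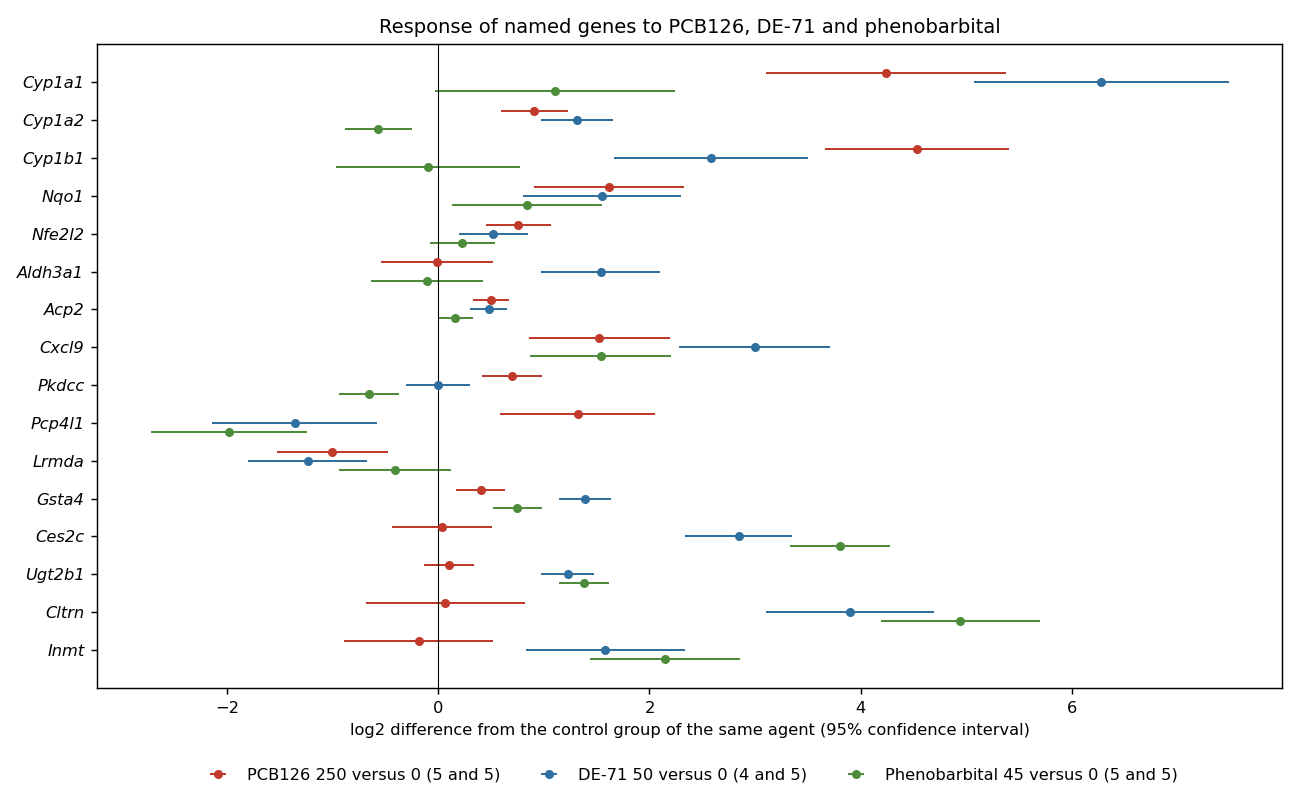
Log2 difference from the control group of the same agent (x axis, points with 95% confidence intervals from limma) for 16 named genes (y axis) at PCB126 250, DE-71 50 and phenobarbital 45. Ces2c, Ugt2b1 and Cltrn lie near 0 with PCB126 and at 1.22 to 4.94 with the other agents, while Cyp1b1 is at 4.53 with PCB126 and -0.10 with phenobarbital.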

How the data were processed

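Liver RNA was hybridised to Affymetrix rat expression arrays. Each array gives 1 log2 value per probe set, which the authors deposited after RMA (robust multi-array average), per the submitters' processing notes. The RMA version, the genome build and any scan batch are not given in the sources used here. The agents look normalized separately, which the labels do not state, so each contrast stays within an agent or takes the difference of such contrasts. The table holds 31099 probe sets, of which 57 controls were left out. The platform annotation gives 1 gene for 20826, several for 436 and none for 9780. Where a gene had several probe sets of its own, the brightest on average stood for it, and 14217 genes were tested.

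The 15 group means were estimated together from 72 samples with limma 3.58.1 in R 4.3.3. A pair of near-identical arrays within a group (root mean square difference below 0.3 over 300 variable genes with a mean of at least 7) was averaged, which happened for 2 pairs. Another 2 pairs below this limit crossed dose groups, 1 each of DE-71 and BDE-47, and were not averaged. No PCB126 pair was below it, and the lowest of 190 was 0.55. The fit had 57 residual degrees of freedom. P values are two-sided and adjusted by Benjamini and Hochberg over all genes of a contrast. The trend used equal steps between the 4 doses in order. The 37 gene lists held 685 entries, 588 of them measured, and lists are described by counts and medians with no test of the list. Arrays have no counting depth, so their number limits the precision. The code was tested on simulated data.

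Named genes are the called genes, the 12 next by p, the 10 largest differences per direction among genes with an unadjusted p below 0.05 and no overlap, all AhR list members, up to 4 members of each other list, and up to 6 genes of each other comparison. Cd3e and Cd8a were named as defining cell type markers. The members and lists were chosen with earlier results of these data known. Alternatives changed the samples in the fit, the normalization, the probe set rule, a filter on dim genes, the variance model, array weights, an Xist covariate, a replicate block and each replicate. Promoter sequences came from RefSeq (GRCr8), and no other coordinates are given.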

Additional observations from a re-analysis of the deposited data

Results flagged for a closer look

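In 90 groups of 5 arrays (45 genes at doses 0 and 250) the array farthest out was compared with its nearest neighbour, as a gap divided by the group's whole range, and 6 passed 0.71. Chance gives about 1 in 20 groups. In the controls, Cyp1a1 was lowest on replicate 2 (7.48, ratio 0.743), Lgals8 was lowest on replicate 1 (9.23, ratio 0.756) and Rup2 was highest on replicate 2 (4.50, ratio 0.787). At 250, Nfe2l2 was highest on replicate 3 (10.98, ratio 0.746), Fmo1 was lowest on replicate 5 (10.17, ratio 0.767) and Inmt was highest on replicate 5 (4.90, ratio 0.726).

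The response to PCB126 250 differed from that to DE-71 50 in limma for Pcp4l1 by 2.68 and for Aldh3a1 by -1.55. It differed from that to phenobarbital 45 for Cyp1b1 by 4.63, for Pcp4l1 by 3.30, for Cyp1a1 by 3.13, for Cyp1a2 by 1.48, for Pkdcc by 1.35, for Enpp2, which encodes autotaxin, by 0.55 and for Inmt by -2.33. The Enpp2 difference (adjusted p = 0.047) lost its call in 17 of 28 alternatives, with adjusted p up to 0.18.

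Outside the gene table, 4 probe sets were higher at 250 than in the controls. The Ceacam4 and Ceacam1 probe set 1370371_a_at differed by 3.50, the Rup2 probe set 1370350_x_at by 1.26 from controls near the lowest levels of the arrays, the unnamed 1378083_at by 0.985 and the shared Ugt1a probe set 1370613_s_at by 0.424. With DE-71 50 these 4 also rose, by 4.65, 0.74, 1.07 and 0.43 in the same order. With phenobarbital 45 only 1378083_at rose (0.77), and with BDE-47 50 it rose by 0.53 and 1370613_s_at by 0.44. The DE-71 and BDE-47 values were not refitted without the near-identical arrays. No cause was tested for any of these.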

How the results depend on the processing

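Between PCB126 250 and 0 the count of 8 genes ranged from 4 to 11. Leaving out single arrays gave 4 to 8, with 4 without control replicate 5 and 5 without control replicate 3, control replicate 4 or 250 replicate 5. Leaving out DE-71 50 replicate 2 gave 8 and PCB126 50 replicate 2 gave 6, both chosen after seeing the data. Leaving out the 4 arrays of near-identical pairs across dose groups of DE-71 and BDE-47, also chosen after seeing the data, gave 8 genes, and 277 against DE-71. The counts without single arrays were 2 to 5 for 250 against 50 (5 without 250 replicate 1), 1 to 3 against 10, 4 to 7 for the trend, 43 to 300 against DE-71, 57 to 81 against phenobarbital and 7 to 14 for all probe sets. With only PCB126 arrays in the fit, 250 against 10 gave 5 genes. With only the 10 arrays, 5 probe sets passed. Array weights gave 56 genes against DE-71 and 153 against phenobarbital. The cause of these shifts was not tested. Single-gene values were followed through the alternatives for named called genes of the gene comparisons above. For 250 against 0 the genes next by p and those with the largest differences were also followed. None of the values followed was reversed. Other named genes, Tiparp among them, were not followed, so a change of sign is not excluded for them. Same-numbered arrays of 0 and 250 had correlations of deviations of -0.15, 0.29, 0.36, 0.23 and 0.35 for replicates 1 to 5, and replicates 2 to 5 (4 of 5) matched their own number best, a hint from the data, while replicate 1 did not and lay below the limit of 0.1 required of every pair, so the numbers were not taken as pairs. With the replicate block there were 7 genes for 250 against 0 (Nqo1 at an adjusted p of 0.065), 3 against 50, 2 against 10, 5 for the trend, 133 against DE-71 and 81 against phenobarbital. The block joined same-numbered arrays over all doses of an agent. It therefore does not show what pairing only doses 0 and 250 would give, and it was not fitted to the probe sets. The small number of arrays limits what differences this design can call.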
